A study of Mus musculus with 12 samples.

Results

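Apoe, Apoc1, Apoc4 and Apoc2 lie next to each other on mouse chromosome 7, transcribed in that order on the minus strand, and encode apolipoproteins, the proteins on the surface of lipoprotein particles. They were examined here in 12 clones of induced pluripotent stem (iPS) cells that carried or lacked Aid, a cytidine deaminase whose role in removing DNA methylation during reprogramming was the question of the study. The starting point was 1 Apoc2 probe that was chosen by its measured values, since the study lists it among the probes that were more than 2-fold lower in Aid-/- than in Aid+/+ clones on these same arrays. Apoe, Apoc1 and Apoc4 were then taken by position, as the probes whose transcript accession belongs to these genes. This gave 4 probes, 1 per gene, of 55681 non-control probes on the array, and the 4 genes stand beside 20660 genes that could be named. The Apoc2 difference between genotypes is therefore a description with no test, and the tests below are on its neighbours.

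Apolipoprotein E is the ligand through which lipoprotein remnants are taken up by cells. Apolipoprotein C-II is the activator that lipoprotein lipase needs to cut triglycerides, apolipoprotein C-I inhibits lipid transfer and remnant uptake, and apolipoprotein C-IV is a minor, mostly hepatic apolipoprotein. In liver and macrophages the 4 genes share distal enhancers, and Apoe is also made by many other cells.

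The 6 Aid+/+ clones were 967B2, 967B4 and 967B6 (series 967B) and 979B1, 979B3 and 979B4 (series 979B). The 6 Aid-/- clones were 979F1, 979F2 and 979F3 (series 979F) and a last series of 981E1, 981E4 and 981E5. All derived from male mouse embryonic fibroblasts of a mixed C57BL6, DBA and 129S4 background with a Nanog-GFP reporter, reprogrammed with retroviruses, and all were at passage 6, grown on gelatin with LIF and puromycin after earlier passages on feeder cells. Each clone had 1 one-colour array, so clones are the replicates, and clones of a series share their experiment. The p-values below measure the spread between clones and, unless stated, treat clones of a series as independent.

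Genotype could be compared on the same slide only in slide 3, which held 979B and the clones 981E1, 981E4 and 981E5, and within the same experiment number only in 979B and 979F. Series 967B was alone on slide 1 and 979F alone on slide 2, so that outside slide 3 genotype, series and slide cannot be told apart. Slide 3 held 1 series per genotype, so genotype and series cannot be told apart there either. The signal at the 75th percentile ran from 418 to 509 over the arrays and 31680 to 33652 probes per array were well above background. All values are log2 signals relative to the 75th percentile of the same array, so 0 is that percentile, and they rank clones for 1 probe and not probes against each other.

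The study asked about DNA methylation, which in mammals sits mainly on CpG dinucleotides, so the start regions of the genes at both ends of the cluster are shown from RefSeq (GRCm38.p6), 5′ to 3′, in lower case with each CpG in capitals. Windows run from 250 bases before to 50 after a transcript start. The Apoc2 window is cut where it enters Apoc4, whose annotated end takes up its first 108 bases.
Apoc2 promoter, chr7:19677892-19678083, minus strand: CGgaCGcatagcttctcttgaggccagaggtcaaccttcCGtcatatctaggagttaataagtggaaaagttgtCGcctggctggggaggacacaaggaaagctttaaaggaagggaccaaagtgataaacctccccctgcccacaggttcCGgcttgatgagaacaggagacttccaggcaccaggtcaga
Apoe promoter, chr7:19699139-19699438, minus strand: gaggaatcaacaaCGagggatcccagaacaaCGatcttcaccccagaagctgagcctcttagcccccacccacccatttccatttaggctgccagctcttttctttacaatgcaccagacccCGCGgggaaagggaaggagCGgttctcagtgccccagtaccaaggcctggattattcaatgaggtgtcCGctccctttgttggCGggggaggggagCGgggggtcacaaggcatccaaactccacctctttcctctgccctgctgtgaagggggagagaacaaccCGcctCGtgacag
The whole Apoc2 window holds 7 CpGs (search motif CG, which reads the same on both strands), as many as the median of 32851 windows, and 52.1% of all windows hold at least that number. The Apoe window shown, the farthest upstream of 3 annotated, holds 10 CpGs, a number reached by 43.5% of windows. The Apoc4 window holds 5. A count of letters says nothing of whether they are methylated, and methylation at these sites was not analysed here.

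Apoc2 was lower in every Aid-/- clone than in any Aid+/+ clone, which is the pattern it was chosen for. Its values were -0.88, -1.38 and -0.80 in 967B2, 967B4 and 967B6, and -1.16, -1.35 and -1.23 in 979B1, 979B3 and 979B4. They were -1.86, -2.43 and -2.53 in 979F1, 979F2 and 979F3, and -2.17, -2.02 and -2.43 in 981E1, 981E4 and 981E5. The lowest Aid+/+ clone was 967B4 and the highest Aid-/- clone 979F1, with a gap of 0.49 between them. The group means were -1.13 ± 0.24 and -2.24 ± 0.27 (SD, n = 6 each). The log2 difference was -1.11, or 2.15-fold lower, just inside the 2-fold limit of the study's list, which also set a limit on the corrected p-value. Of the 55580 probes with a value on every array, 1.48% had all Aid-/- clones below all Aid+/+ clones, and nothing is read from that share for Apoc2.

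The Apoc2 difference had a similar size in each pairing of series. A choice by corrected p-value favours probes that vary little within a genotype, so nothing is read from this evenness. The log2 difference was -1.03 for 979F against 979B, -1.19 for 981E1, 981E4 and 981E5 against 967B, and -0.96 for these against 979B on slide 3. Within a genotype the series means lay close together, at -1.02 ± 0.31 and -1.25 ± 0.095 for 967B and 979B and at -2.28 ± 0.36 and -2.20 ± 0.21 for 979F and for 981E1, 981E4 and 981E5 (SD, n = 3 each). In the order of the series by level, the Aid+/+ series came first with 967B above 979B and 979F last, and only the step from 979B to the Aid-/- series separated ranges that did not overlap. The probe was well above background on all 12 arrays, but with processed signals of only 79.3 to 286. Background correction by normexp with an added offset of 50 brought its difference to -0.75. That offset is not small beside these signals, and its own part in the change was not tested.

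**Figure D1:**
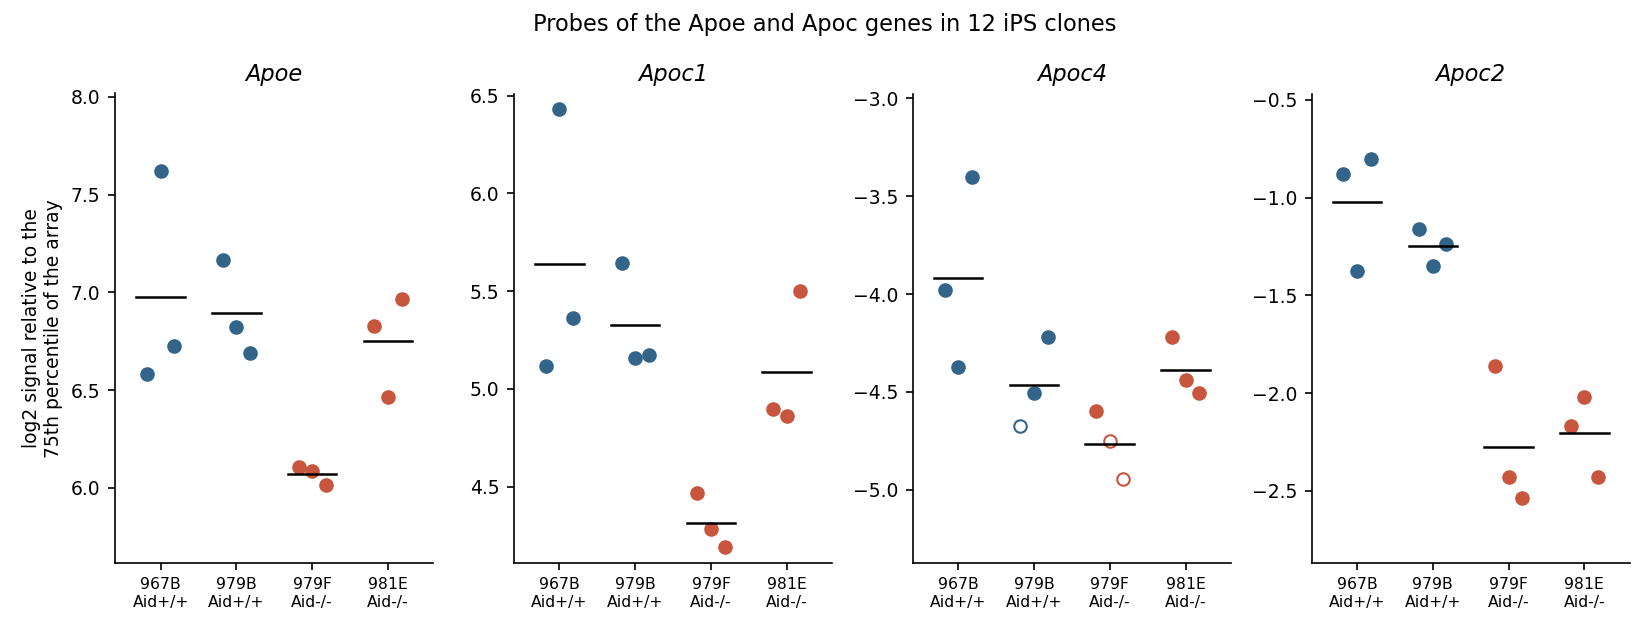
Log2 signal of the Apoe, Apoc1, Apoc4 and Apoc2 probes (vertical axes, relative to the 75th percentile of each array, each panel spanning the same range of 2.4 log2 units) in the 12 clones by series. Each circle is 1 clone, blue for Aid+/+ and red for Aid-/-, open where the probe was not well above background, and bars are series means. Apoc2 separates the genotypes, while Apoe and Apoc1 are lowest in 979F and overlap between 981E1, 981E4 and 981E5 and the Aid+/+ series.

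Apoe, measured by 10 spots per array whose log2 SD was 0.022 to 0.043, spanned more within each genotype (1.04 log2 units in Aid+/+, 0.95 in Aid-/-) than the difference between the genotype means. Its values were 6.58, 7.62 and 6.73 in 967B2, 967B4 and 967B6, and 7.16, 6.82 and 6.69 in 979B1, 979B3 and 979B4. They were 6.10, 6.09 and 6.01 in 979F1, 979F2 and 979F3, and 6.83, 6.47 and 6.97 in 981E1, 981E4 and 981E5. The 979F clones were the lowest of all 12, and 981E1 and 981E5 lay among the Aid+/+ clones, with 4 of 6 Aid-/- clones below the lowest Aid+/+ clone. The means were 6.93 ± 0.39 and 6.41 ± 0.41 (SD, n = 6 each). The log2 difference was -0.52 (SE 0.22, 95% confidence interval -1.001 to -0.047), 1.44-fold lower in Aid-/-, with an adjusted p of 0.322 in the limma fit over all probes.

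Apoc1 followed the clones as Apoe did. Its values were 5.12, 6.43 and 5.36 in 967B2, 967B4 and 967B6, and 5.64, 5.16 and 5.17 in 979B1, 979B3 and 979B4. They were 4.47, 4.28 and 4.19 in 979F1, 979F2 and 979F3, and 4.90, 4.86 and 5.50 in 981E1, 981E4 and 981E5. Again 979F was lowest, 967B4 was highest, and 5 of 6 Aid-/- clones lay below the lowest Aid+/+ clone, the exception being 981E5. The means were 5.48 ± 0.51 and 4.70 ± 0.49 (SD, n = 6 each), a log2 difference of -0.78 (SE 0.27, 95% confidence interval -1.37 to -0.20) or 1.72-fold lower, with an adjusted p of 0.229 in the limma fit.

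Apoc4, whose annotated gene lies directly before Apoc2, was at the edge of detection. Its values were -3.98, -4.37 and -3.40 in 967B2, 967B4 and 967B6, and -4.67, -4.51 and -4.22 in 979B1, 979B3 and 979B4. They were -4.60, -4.75 and -4.95 in 979F1, 979F2 and 979F3, and -4.22, -4.44 and -4.51 in 981E1, 981E4 and 981E5. The probe was well above background on 9 arrays and not on those of 979B1, 979F2 and 979F3. Its processed signals, from which background was already corrected, were 16.2 to 47.1, and the local backgrounds themselves were 20 to 29. The groups overlapped, with 2 of 6 Aid-/- clones below the lowest Aid+/+ clone and 3 of 6 Aid+/+ clones above the highest Aid-/- clone. The means were -4.19 ± 0.46 and -4.58 ± 0.25 (SD, n = 6 each), and the log2 difference was -0.39 (SE 0.20, 95% confidence interval -0.83 to 0.057) with an adjusted p of 0.442 in the limma fit, and it was -0.23 without 967B6 and turned to 0.079 on slide 3 alone. RefSeq also annotates a read-through transcript over Apoc4 and Apoc2, and whether either probe detects it is not given in the sources used here.

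Thus 0 of the 3 neighbours were called lower at an adjusted p under 0.05 by limma, where 0.0305% of all probes were. At an unadjusted p under 0.05, Apoe and Apoc1 were lower, 2 of 3, where 8.1% of all probes were, and the methods' t-test gave the same counts of 2 before and 0 after adjustment. The first count fell to 1, Apoc1, in each fit without 967B4, 979B1, 979F1, 979F2 or 979F3, where the unadjusted limma p of Apoe was 0.0674 to 0.0754. Without 967B4 the log2 differences were -0.39 for Apoe and -0.59 for Apoc1. With series as a random block, the unadjusted limma p was 0.0452 for Apoe and 0.0187 for Apoc1, with adjusted p of 0.444 and 0.343. The median difference of the 3 probes was -0.52, beside -0.014 over all 55681. Whether the difference of a neighbour itself differs from that of Apoc2 was not tested.

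The Apoe and Apoc1 differences were not of the same size in each pairing of series. For 979F against 979B the log2 differences were -0.82 for Apoe and -1.01 for Apoc1, and for 981E1, 981E4 and 981E5 against 967B they were -0.22 and -0.55. On slide 3, where both genotypes were hybridised together, they were -0.14 (limma adjusted p = 0.832) and -0.24 (limma adjusted p = 0.700). The difference between the experiment of 979F and 979B and the other clones, tested as an interaction, was -0.60 for Apoe (95% confidence interval -1.41 to 0.21, limma adjusted p = 0.644) and -0.46 for Apoc1 (-1.47 to 0.55, limma adjusted p = 0.791). For Apoc4 it was 0.17. None of the 3 was called, 0.106% of all probes were, and 0 of the 3 had an unadjusted p under 0.05, as 9.85% of all probes had. The size of these values depended on single clones, while those of Apoe and Apoc1 stayed negative in every fit without 1 clone. Without 967B4 the interaction was -0.92 for Apoe and -0.86 for Apoc1. In that fit 2 of the 3 had an unadjusted limma p under 0.05 (adjusted p of 0.125 and 0.217), as had 9137 of all 55681 probes. For Apoc1 the interaction was -0.20 without 967B2, -0.25 without 981E5 and -0.30 without 979B1.

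Within a genotype, none of the 3 neighbours was called between series either. For 979F minus 981E1, 981E4 and 981E5, where 3.02% of all probes were called, the log2 differences were -0.68 for Apoe (limma adjusted p = 0.188), -0.77 for Apoc1 (limma adjusted p = 0.232) and -0.38 for Apoc4, with 2 of the 3 at an unadjusted p under 0.05, as were 18.4% of all probes. For both Apoe and Apoc1 the clone ranges of these Aid-/- series did not overlap. For 979B minus 967B, where 0.711% were called, they were -0.084, -0.31 and -0.55, and 1 of the 3, Apoc4, had an unadjusted p under 0.05, as did 10.5% of all probes. For both genes the order of the series by mean was 967B, 979B, the clones 981E1, 981E4 and 981E5, and 979F, and only the last step separated ranges.

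**Figure D2:**
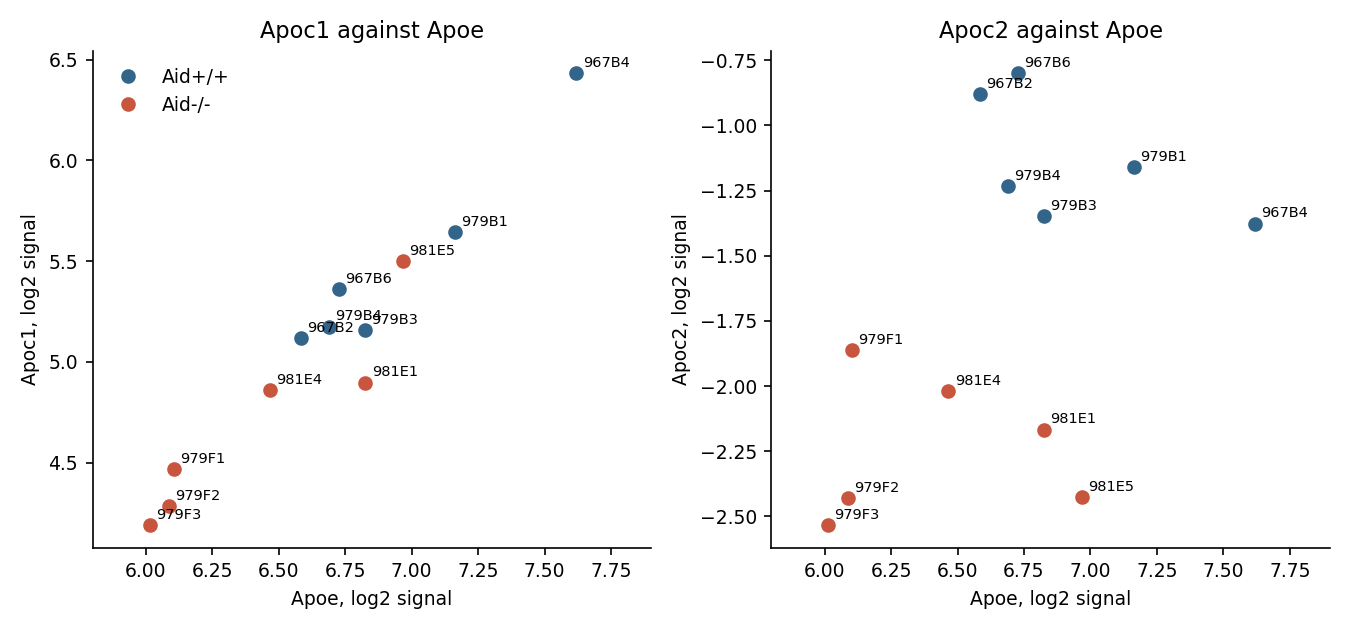
Log2 signals of Apoc1 (left) and Apoc2 (right) against Apoe (horizontal axes) in the 12 clones, blue for Aid+/+ and red for Aid-/-. Apoc1 lies along Apoe in both genotypes, with 979F at the low and 967B4 at the high end, whereas Apoc2 lies at 2 levels, 1 per genotype, as it was chosen to. Apoe runs from 6.58 to 7.62 in Aid+/+ and from 6.01 to 6.97 in Aid-/- clones.

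The relation of the members to each other among clones was examined within a genotype, as 8 relations with 2-sided exact permutation tests over 720 pairings of 6 clones. Among the Aid+/+ clones, Apoe and Apoc1 had a Pearson r of 0.97 (exact permutation p = 0.0111, adjusted 0.0444) and a Spearman rho of 0.83 (exact permutation p = 0.0583, adjusted 0.233). Without 967B4 and 979B1, the clones farthest from the median of Apoe, r was 0.27, so this relation rests on them. Among the same clones Apoc2 and Apoe had an r of -0.60 (exact permutation p = 0.186, adjusted 0.372), a rho of -0.60 (exact permutation p = 0.242, adjusted 0.387) and an r of -0.34 without 967B2 and 967B6.

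For Apoc2 and Apoc1 in the Aid+/+ clones r was -0.44 (exact permutation p = 0.426, adjusted 0.569), rho was -0.31 (exact permutation p = 0.564, adjusted 0.564) and r without 967B2 and 967B6 was -0.36. For Apoc2 and Apoc4 r was 0.81 (exact permutation p = 0.0431, adjusted 0.115), rho was 0.60 (exact permutation p = 0.242, adjusted 0.387) and r without 967B2 and 967B6 was -0.34. Neither relation passed adjustment. In the Aid-/- clones the neighbours fell into separate clusters by series, so no pooled coefficient is given there, and a series of 3 clones is too small for one.

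The summed signal of fibroblast markers was highest in 979F3 and 979F2, the clones of lowest Apoe and Apoc1. Fibroblasts were the source of the clones and serve as feeders, and of 9 fibroblast markers 8 had higher means in Aid-/- clones, with a median log2 difference of 1.78, which was 1.06 without 967B4. By limma 0 of the 9 probes were called at an adjusted p under 0.05, and 7 were higher at an unadjusted p under 0.05, as were 5.5% of all probes. In fits without 1 clone that count was 3 to 8, the fewest without 979F3. Lum was not well above background on any array. The summed linear signal of the 9 probes, in multiples of the 75th percentile, was 1.82 to 17.8 in the Aid+/+ clones (median 11.9) and 13.6 to 34.0 in the Aid-/- clones (median 25.4). This sum is led by Col1a2, with mean log2 signals of 0.99 in Aid+/+ and 3.27 in Aid-/-, and Thy1, with 2.02 and 2.84. Of the 9 probes 4 were well above background on all 12 arrays.

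Clone by clone, the sum was lowest in 967B4, which had the highest Apoe and Apoc1, and 979F3, with the highest sum, had the lowest Apoe, Apoc1 and Apoc2. The 979F clones ran from 23.7 to 34.0 and 981E1, 981E4 and 981E5 from 13.6 to 27.1, with 981E5, the Aid-/- clone of highest Apoe and Apoc1, at the lower end. Other clones broke this order. 981E4, at 27.1, was above 979F1, at 23.7, which had lower Apoe and Apoc1. 967B6 had the next lowest sum after 967B4, 6.86, but ranked only 6 from the highest for Apoe and 4 for Apoc1. Apoc2 did not follow the sum within the Aid+/+ clones, where 967B4 had its lowest level. The summed signal of 10 iPS cell markers was highest in 967B4 (1156), followed by 981E5 (1061), and was 791 to 834 in 979F, against 844 to 1156 over the Aid+/+ clones. This linear sum is led by Dppa5a, with mean log2 signals of 9.07 in Aid+/+ and 8.94 in Aid-/-, before Fgf4 with 6.33 and 6.37. Of the 10 markers 2 had higher means in Aid-/-, with a median log2 difference of -0.085. By limma 0 of their 14 probes were called, and 3, all of Tdgf1, were lower at an unadjusted p under 0.05, as were 8.1% of all probes. All 14 probes were well above background on all 12 arrays, as the cell type label has it.

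Of 12 markers of endoderm, an early lineage that makes apolipoproteins, 10 had higher means in Aid-/- clones, with a median log2 difference of 0.70. By limma 0 of their 15 probes were called at an adjusted p under 0.05, and 2 were higher at an unadjusted p under 0.05, as were 5.5% of all probes. The summed signal was 18.6 to 28.2 in Aid+/+ and 17.8 to 26.3 in Aid-/- clones, but 88.6% to 95.7% of it came from Lamb1. Without Lamb1, a sum added after the values were seen, the other 11 gave 0.80 to 1.90 in Aid+/+ (median 1.34) and 1.41 to 2.27 in Aid-/- clones (median 1.83), and Ttr, a defining gene of the list, was not well above background on any array. For these marker lists, their part in the Apoe and Apoc1 differences was not tested, and in RNA from whole cultures fewer cells of a type and less RNA per cell cannot be told apart.

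**Figure D3:**
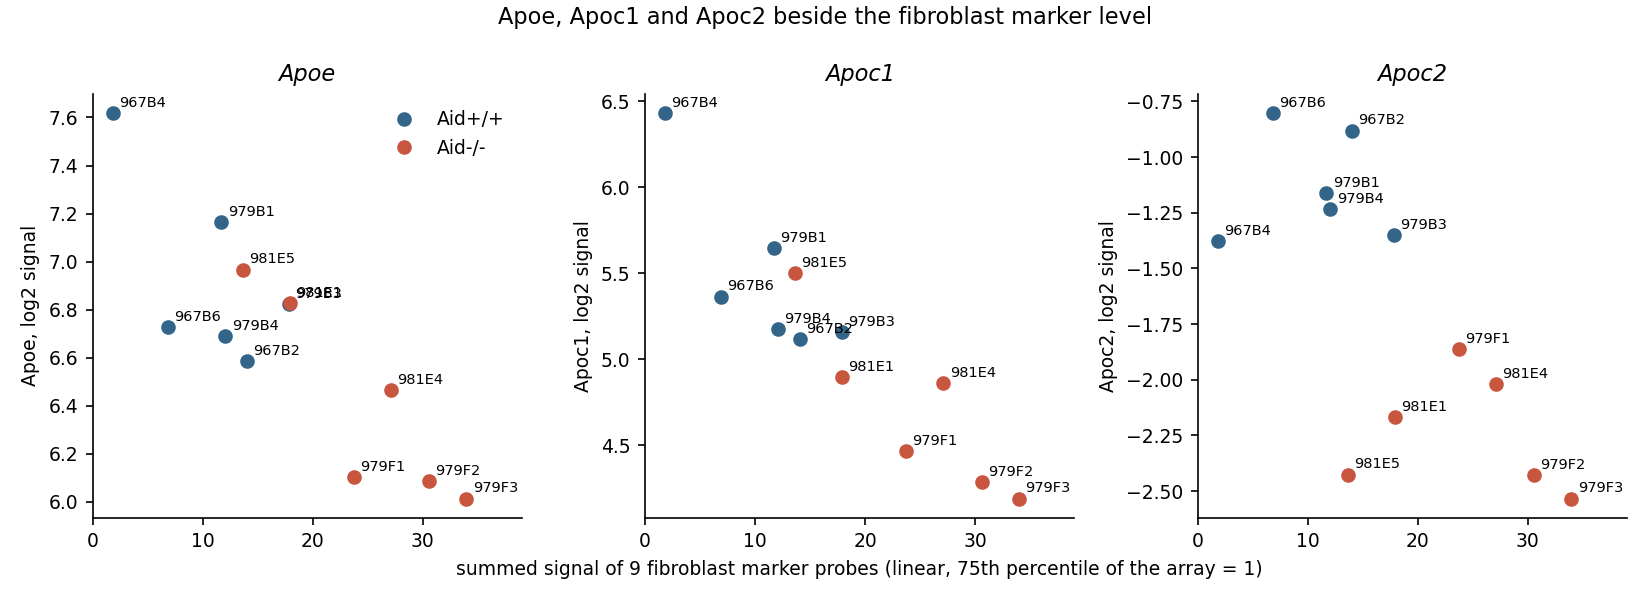
Log2 signals of Apoe, Apoc1 and Apoc2 (vertical axes) against the summed linear signal of 9 fibroblast marker probes (horizontal axes, multiples of the 75th percentile of the array) in the 12 clones, blue for Aid+/+ and red for Aid-/-. 967B4, at 1.82, has the highest Apoe and Apoc1, 979F3, at 34.0, has the lowest, and Apoc2 shows the separation by genotype that it was chosen for.

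The genes on either side were examined next, 5 protein-coding genes beyond Apoe and 5 beyond Apoc2. The nearest on both sides, Tomm40, the channel for protein import into mitochondria, and Clptm1, a membrane protein, did not separate the genotypes, with means of 5.12 and 5.11 for Tomm40 and 3.53 and 3.53 for Clptm1 in Aid+/+ and Aid-/-. The 95% confidence intervals of their log2 differences were -0.45 to 0.44 and -0.22 to 0.22. Over all 15 flanking probes, all well above background on every array, limma called 0 at an adjusted p under 0.05 and 4 had an unadjusted p under 0.05, 2 lower and 2 higher, where 13.6% of all probes had, and the median difference was -0.0042. That share includes undetected probes. In the fit of only the 28367 probes above background on all 12 arrays, 6071 had an unadjusted limma p under 0.05.

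Farther out, Bcam and Zfp296 stood apart from these. Bcam, a laminin-binding adhesion molecule on the Apoe side, was 1.00 to 1.25 in the Aid+/+ clones (median 1.10) and 0.076 to 0.76 in the Aid-/- clones (median 0.53), without overlap, as for 1.48% of all probes in this direction. Its log2 difference was -0.66 (SE 0.13, limma adjusted p = 0.0766). The next gene, Cblc, a ubiquitin ligase of the Cbl family, had a log2 difference of -0.50 (limma adjusted p = 0.159), with groups that overlapped.

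On the Apoc2 side Zfp296, a zinc finger protein of embryonic stem cells, was 3.09 to 3.61 in the Aid+/+ clones and 3.93 to 5.37 in the Aid-/- clones, also without overlap but in the opposite direction, in which 0.698% of all probes separated. Its log2 difference was 0.94 (SE 0.24, limma adjusted p = 0.126). The lead probes of the other 7 genes, those of highest mean signal, had differences between -0.12 and 0.21. With slide as a fixed block, where limma called 4.13% of all probes, both were called (adjusted p of 0.0144 for Bcam and 0.0343 for Zfp296). The same differences in a fit of the slide 3 clones alone had limma adjusted p of 0.0820 and 0.134, and when the series was a random block Bcam had 0.141 and Zfp296 0.221.

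**Figure D4:**
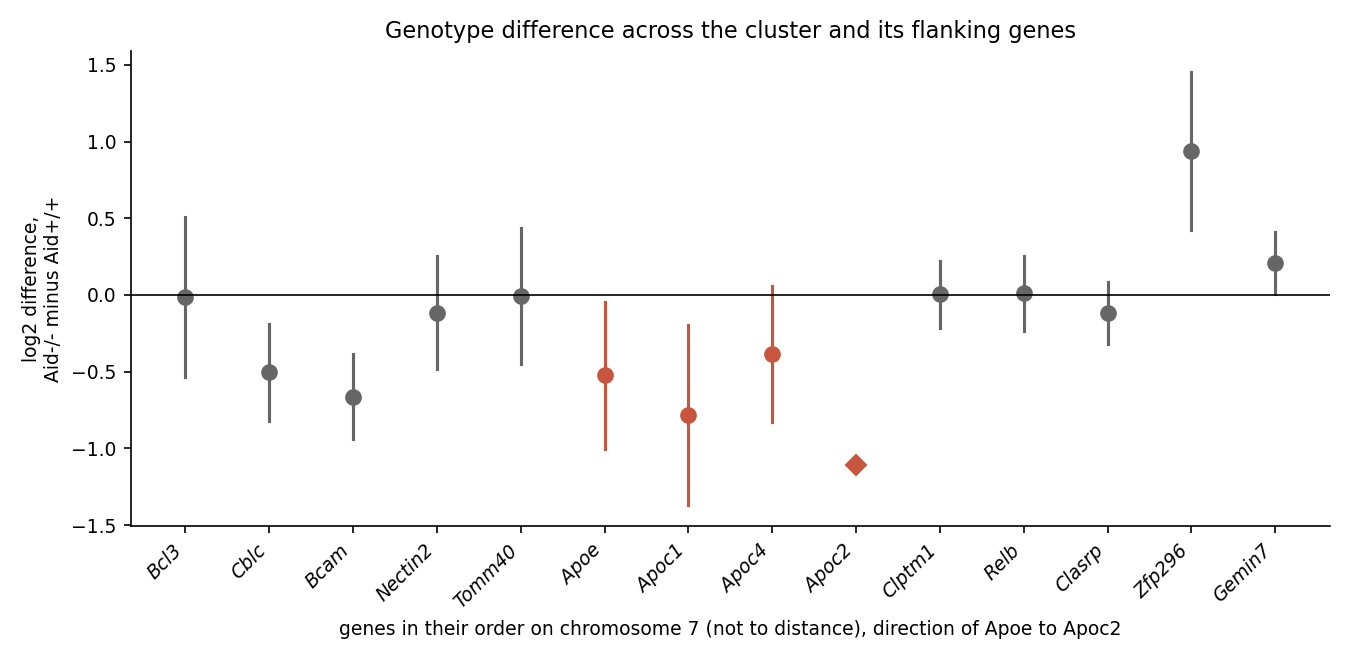
Log2 difference between the means of 6 Aid-/- and 6 Aid+/+ clones (vertical axis) for the lead probe of each gene, in gene order along chromosome 7 from Bcl3 to Gemin7 (horizontal axis, not to distance). Red marks the cluster, grey the flanking genes, and lines are 95% confidence intervals of the limma fit, which the Apoc2 diamond lacks because Apoc2 was chosen on this difference. Tomm40 and Clptm1, at either edge of the cluster, lie at -0.0042 and 0.0033, with Bcam and Zfp296 off 0 farther out.

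Of the wider lipoprotein pathway, 40 genes with 53 probes, limma called 0 probes at an adjusted p under 0.05. At an unadjusted p under 0.05 there were 5 higher and 2 lower of the 53, near the 13.6% of all probes, and the median difference was 0.0054. The partners of apolipoprotein C-II showed no called difference. Lipoprotein lipase, Lpl, had a log2 difference of 0.45 (95% confidence interval -0.43 to 1.33), from -2.90 in 967B4 to -0.21 over the Aid+/+ clones against -0.88 to -0.035 over the Aid-/- clones, and it was 0.040 without 967B4 and turned to -0.35 on slide 3. Gpihbp1, which holds the lipase at the vessel wall, and Lmf1, which matures it, were among 7 named genes whose lead probes had differences between -0.19 and 0.10. A second probe of Lmf1 had -0.28 (limma unadjusted p = 0.0380, adjusted 0.334).

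The receptors for apolipoprotein E gave a mixed picture. Lrp1, a remnant receptor, had a log2 difference of 0.46 (limma adjusted p = 0.229), while the lead probes of Vldlr, Lrp8 and Scarb1 were within the range of the 7 genes above, as were those of the sterol-sensing receptors Nr1h2 and Nr1h3. Second probes lay outside it for Vldlr, with 0.59 (limma unadjusted p = 0.0495, adjusted 0.367, above background on 7 arrays), and for Lrp8, with -0.32. Abca1, which loads cholesterol onto apolipoproteins, had the largest difference of the probes well above background on every array, 0.78 (SE 0.20, limma adjusted p = 0.132), and the related exporter Abcg1 had -0.37. Next in size were Lrpap1, a chaperone of these receptors, with 0.66 for 1 probe (0.41 without 981E5) and 0.17 for the other, and Lipa, the lysosomal lipase, with 0.50 (limma adjusted p = 0.253). None of them passed adjustment.

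By likeness of pattern over the 12 clones, among 17594 probes of named genes well above background on every array, those nearest to Apoe were 2 probes of Gnpda1, an amino sugar deaminase (Pearson r 0.99 both), then Fgg, a fibrinogen chain (0.98), Arhgef16, a nucleotide exchange factor (0.98), and Cldn7, a tight junction protein (0.98). Apoc1 would follow at 0.97, in place 6. Apoc2 had an r of only 0.45 with Apoe, and Apoc4 0.28.

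Those nearest to Apoc2 were 2810025M15Rik, Abracl, Upk3bl and Pramel13 (r 0.94 each) and a second Upk3bl probe (0.93), and its neighbours ranked far behind, with 0.68 for Apoc4, 0.55 for Apoc1 and 0.45 for Apoe. The second Upk3bl probe is itself on the study's list of probes lower in Aid-/- clones, as the Apoc2 probe is. These coefficients describe clones that share genotype, series and slide, and for Apoc2 they include the difference it was chosen on.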

How the data were processed

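Total RNA of 12 mouse iPS clones was labelled with Cy3 and hybridised by the authors to Agilent whole mouse genome arrays, 1 per clone, and read with Feature Extraction 10.7.3.1. The deposited intensity of each spot, already background-corrected by that software but not normalized between arrays, was used. The authors' deposited log2 values, with a 75% normalization in GeneSpring GX, served as an alternative. Spots with outlier flags and controls were left out, spots of a probe were averaged on the log2 scale, and each array's 75th percentile was set to 0. No spot was saturated (0 on every array). A probe counted as well above background where at least 50% of its spots were so flagged. limma 3.58.1 (R 4.3.3) compared 6 with 6 clones over all 55681 probes with Benjamini-Hochberg adjustment, and a fit with a mean per series gave the interaction and series contrasts. The script was tested on simulated data. Exact permutation tests used Python 3.11.15. Precision is limited by the number of arrays.

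Gene names came from RefSeq (GRCm38.p6) through the accessions of the files (27235 of 28685 named), and its coordinates are not those of the mm9 annotation of the array. The Apoc2 accession is not in that table and its probe was included by its identifier. Lead probes were those of highest mean signal. The genes named are the 4 members, the lead probes of all flanking genes, listed lipoprotein genes with any called probe and the 3 largest differences among detected list probes, and the 5 probes most like Apoc2 and Apoe. Some listed genes are not reported here. Members and lists were chosen with earlier results of these data known. Alternatives covered background correction, normalization, filters, test, slide and series as blocks, pairs of series and leaving out each clone.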

Additional observations from a re-analysis of the deposited data

Results flagged for a closer look

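Apoa2, an apolipoprotein of high density lipoprotein encoded elsewhere in the genome, was the 1 gene of the lipoprotein and flanking lists whose genotype difference differed between the experiment of 979F and 979B and the other clones. The interaction was 1.22 on the log2 scale for its lead probe (limma adjusted p = 0.0261). That probe was 4.68 to 4.73 in 979F against 3.70 to 3.76 in 979B, and 3.24 to 3.48 in 981E1, 981E4 and 981E5 against 3.44 to 3.70 in 967B, so 979F, which had the lowest Apoe and Apoc1, had the highest Apoa2. The interaction stayed between 1.14 and 1.22 under the other scalings, filters and limma options with an adjusted p under 0.05, but in fits without 1 clone it lay between 1.16 and 1.29 and kept an adjusted p under 0.05 only without 967B4. No clone stood outside its genotype group by Dixon's criterion for any of the 4 cluster genes (0 of 8 groups, where chance marks about 1 in 20).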

How the results depend on the processing

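Apoe and Apoc1 kept a negative log2 difference between genotypes in all 26 alternatives, from -0.82 to -0.14 and from -1.01 to -0.24, and neither they nor Apoc4 was called in any of them or in the 19 for the interaction. The smallest adjusted p was 0.0642 for Apoc1 and 0.0664 for Apoe, both in 979F against 979B alone. Their lowest sizes, over 1.5 times below the main value, were with slide as a fixed block or on slide 3 alone, which rest on the same clones. Leaving out 1 clone gave -0.64 to -0.39 for Apoe, smallest without 967B4, and -0.94 to -0.59 for Apoc1. Apoc4 turned to 0.079 and Lpl to -0.35 both with slide as a fixed block and on slide 3 alone, and the interactions ran from -0.92 to -0.40 for Apoe and from -0.86 to -0.20 for Apoc1, both largest without 967B4, while that of Apoc4 ran from -0.087, without 967B6, to 0.40 in fits without 1 clone. Apoc2 moved beyond its clone SD only with normexp on the spot medians with an added offset of 50, to -0.75. This alternative was chosen after seeing the data in place of the one on spot means. The latter could not be run because that column is not in the data used. Flanking probes called rose from 0 to 1 (Bcam) with normexp, with only probes above background on all 12 arrays, with trended and robust limma and by the methods' t-test, and to 2 (Bcam and Zfp296) with slide as a fixed block. Lipoprotein probes called rose from 0 to 3 with slide as a fixed block (Lrpap1 and Mylip among them), to 3 in 979F against 979B alone (Apoa2 by 2 probes, Apod) and to 2 on slide 3 alone (Lrpap1, Mylip). Calls over all probes rose in these fits too, to 4.13% with slide as a fixed block. Higher and lower, they were 153 and 364 with normexp, 93 and 195 with trended limma and 88 and 272 by the t-test. They were 134 and 149 in 979F against 979B and 459 and 357 on slide 3. Among the 28367 probes above background on all 12 arrays they were 208 and 272. The cause of these changes was not tested. The filter on all 12 arrays gives Apoc4 no value. Over all probes, the calls for the genotype were 17 higher and 17 lower, against 1269 and 1030 with slide as a fixed block, 5 and 2 with series as the random term, 52 and 55 after quantile normalization, and 33 and 11 when the percentile was taken over detected probes. No paired analysis was possible because the clone names pair no samples across genotypes. Signal over background limits Apoc4, which was not well above background on 3 arrays.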
